A study of Mus musculus with 9 samples.

Results

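The genes described here are 45 components of TGF-beta and BMP signalling, chosen by name from the 24493 genes of a table of expression in mouse pancreatic tumor cells. They comprise 11 ligands, 11 receptors and co-receptors, 7 Smads, 5 secreted antagonists, 5 genes for latent binding proteins and a processing protease, 3 inhibitors that act inside the cell or at the membrane, and the 3 Id genes. All 45 were found in the table. Their levels were compared across parental tumor cells and the escape lines e1 and e2.

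TGF-beta, activin and BMP ligands are secreted dimers that bring together type II and type I receptor kinases. The type I receptor phosphorylates receptor Smads, Smad2 and Smad3 for TGF-beta and activin and Smad1 and Smad5 for BMPs, which enter the nucleus with Smad4. TGF-beta is released in a latent form held in the matrix by Ltbp proteins, and BMPs are kept from their receptors by antagonists such as gremlin, noggin and chordin. In pancreatic epithelial tumors TGF-beta is known both as a brake on growth and as a driver of the change from epithelial to mesenchymal cells, and the Id genes are classical targets of BMP signalling.

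RNA was sequenced from 9 libraries, 3 of the parental cells and 3 of each line, all from cells of the C57BL/6 background, kept untreated in DMEM with serum. The series describes e1 and e2 as tumor cells that resist immunotherapy and that were derived from the parental line. It was not stated whether a line is a single clone, or whether the 3 libraries of a group are separate cultures, so p-values measure only the spread between these libraries. Levels are TPM, a measure of transcript abundance with a fixed total per library, a scale corrected for gene length on which genes of 1 library can be compared. Sequencing depth is not kept in TPM and is unknown here.

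The number of genes at or above 1 TPM was 11188 to 12039 in a library, and Pearson correlations across genes within groups were 0.987 to 0.995 on the log2(TPM + 1) scale. Markers of pancreatic tumor epithelium summed to 9428 ± 622 TPM in parental cells, 1199 ± 21.5 TPM in e1 and 1754 ± 33.2 TPM in e2 (mean ± SD, n = 3, as for all means below). Epcam, a defining epithelial surface protein, was near 0 in both lines, at 0.296 ± 0.0427 and 0.185 ± 0.0737 TPM. In each line 9 of the 10 epithelial markers were lower and Sox9 was higher (6.07 ± 2.16, 17.6 ± 2.52 and 41.4 ± 2.20 TPM), while Krt8 and Krt18 kept means of 747 ± 52.2 and 377 ± 56.2 TPM in e1 and 576 ± 5.01 and 1012 ± 20.9 TPM in e2. A list of 11 fibroblast markers summed to between 0.703 and 1.07 TPM in parental libraries, 315 and 329 TPM in e1 and 339.7 and 352 TPM in e2, with 7 of 11 at a mean of 1 TPM or more in e1 and 9 of 11 in e2. A list of 9 genes of the mesenchymal state, led by Vim, summed to 920 ± 163, 4237 ± 171 and 4587 ± 100.3 TPM. Among the fibroblast markers Lum was listed at 0 in all 9 libraries. Of 14 leukocyte markers, 1 reached a mean of 1 TPM in parental cells, 1 in e1 and 3 in e2, and Cd3e and Nkg7 were listed at 0 throughout. The sum of the leukocyte list was 4.28 ± 0.584, 4.10 ± 0.776 and 15.0 ± 2.61 TPM, and its genes above 1 TPM in e2 were Cd68 (5.43 ± 0.352 TPM), S100a8 (7.62 ± 2.27 TPM) and Lyz2 (1.25 ± 0.306 TPM). The rise of the fibroblast and mesenchymal lists coincided with several changes below, and its part in them was not tested. In such bulk samples fewer cells of a type and less RNA per cell cannot be told apart.

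Of the 45 genes, 40 reached 1 TPM in at least 3 libraries and were tested. The other 5 were Bmp6, Acvr2b, Bmpr1b, Nog and Bambi. In 7 tested genes (Tgfb2, Bmp7, Inhbb, Tgfbr3, Eng, Grem1 and Fst) no parental library reached 1 TPM, which leaves little room for a fall in an escape line. Without the e2 libraries Bmp7, Inhbb and Chrd would not have passed the filter. Fold changes are differences on the log2(TPM + 1) scale ± SE, with adjusted p from limma, where a gene passes below 0.05.

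In e1 against parental cells 37 of 40 genes passed, 21 higher and 16 lower, where 70.6% of all tested genes passed, 35.7% higher and 34.9% lower. In e2 against parental cells 33 of 40 passed, 26 higher and 7 lower, where 73.5% of all tested genes passed, 40.8% higher and 32.7% lower. Between the lines 30 of 40 passed, 22 higher in e2 and 8 lower, where 70.3% of all tested genes passed, 40.6% higher and 29.7% lower. Changes of at least 1 on the log2 scale were found in 17 of 40 genes in e1 (20.2% of all tested genes), 11 higher (7.91%) and 6 lower (12.3%). In e2 there were 15 (23.7%), 12 higher (13.7%) and 3 lower (9.97%), and between the lines 16 (17.8%), 14 higher in e2 (13.1%) and 2 lower (4.68%). The libraries of the compared groups did not overlap for 37 of 40 genes in e1 (71.4% of all tested genes), 35 in e2 (81.4%) and 31 between the lines (76.5%). The median log2 fold change of the 40 genes was 0.22 in e1, 0.57 in e2 and 0.40 between the lines, beside 0.02, 0.07 and 0.09 for all tested genes. Most tested genes passed, so the counts of members are to be read beside those shares. Both comparisons with parental cells use the same 3 parental libraries.

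**Figure D1:**
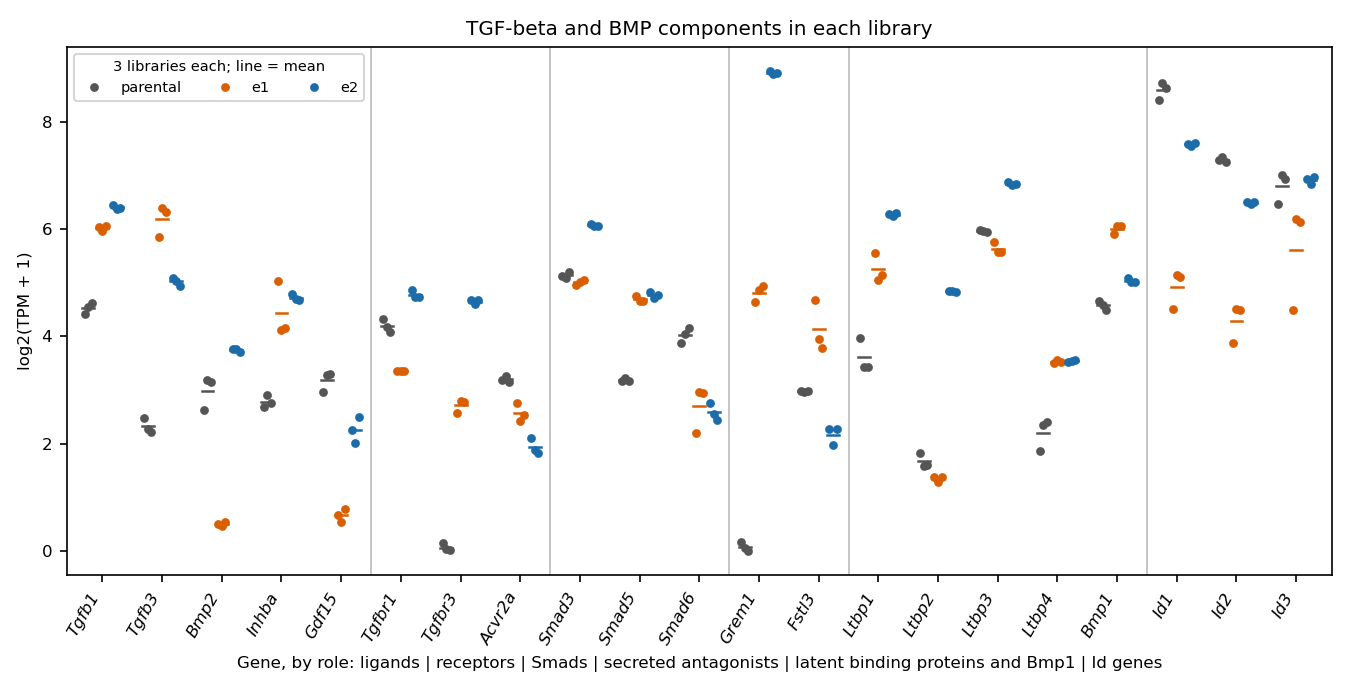
Level of 21 members on the log2(TPM + 1) scale, with genes on the x axis grouped by role, 3 points for the libraries of each group and a line at their mean. Grem1 stood near 0 in the 3 parental libraries and highest of these genes in e2, while Id1 and Id2 were highest in parental cells and lowest in e1.

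All 3 TGF-beta ligand genes were higher in both lines. Tgfb1 on chromosome 7, which encodes the most widely expressed isoform, stood at 20.3, 22.3 and 23.6 TPM in parental libraries, 64.4, 61.2 and 65.5 TPM in e1 and 86.7, 81.6 and 83.1 TPM in e2. The 3 groups did not overlap, and Tgfb1 rose by 1.49 ± 0.06 in e1 (adjusted p = 3.19e-08) and 1.88 ± 0.06 in e2 (adjusted p = 5.77e-09). Tgfb3, an isoform known from palate and mesenchyme development, rose most: it stood at 4.61, 3.87 and 3.68 TPM in parental libraries, 56.9, 83.4 and 78.8 TPM in e1 and 33.0, 31.9 and 29.8 TPM in e2. Every e1 library lay above every e2 library, and the changes were 3.86 ± 0.13 in e1 and 2.69 ± 0.13 in e2, with a difference between the lines of -1.17 ± 0.13 (adjusted p = 3.96e-05). Tgfb2 had the lowest level of these ligands, with means of 0.600 ± 0.102, 3.83 ± 0.498 and 1.55 ± 0.0652 TPM, and rose by 1.59 ± 0.09 and 0.68 ± 0.09. With a pseudocount of 0.1 its changes were 2.49 and 1.25.

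The summed TPM of the 3 isoforms was 26.7 ± 1.10 in parental cells, 141 ± 12.9 in e1 and 117 ± 3.88 in e2. Their make-up differed too. Tgfb1 gave 82.5 ± 2.93% of the sum in parental cells, 45.6 ± 5.09% in e1 and 71.7 ± 0.877% in e2. Tgfb3 gave 15.2 ± 2.48%, 51.6 ± 5.72% and 27.0 ± 0.886% in the same order, so that in e1 it exceeded Tgfb1 in 2 of 3 libraries and lay below it in library 1 (45.3 against 51.3%). These shares are descriptions without a test.

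Activin and GDF ligand genes moved in both directions. Inhba, the activin A subunit, stood at 5.42, 6.49 and 5.79 TPM in parental libraries, 31.8, 16.3 and 16.9 TPM in e1 and 26.7, 24.9 and 24.7 TPM in e2. The parental libraries lay below all others, with changes of 1.65 ± 0.21 (adjusted p = 6.92e-05) and 1.94 ± 0.21 (adjusted p = 2.06e-05). The lines did not pass against each other (0.29 ± 0.21, adjusted p = 0.245), but did without e1 library 1, at 0.59 (adjusted p = 5.35e-05; 5.35e-05 to 0.622 over the alternatives). Inhbb, the activin B subunit, was at or near 0 in parental cells, at 0.167 ± 0.0140 TPM in e1 and at 2.07 ± 0.208 TPM in e2. Its fold changes of 0.22 ± 0.07 and 1.61 ± 0.07 became 1.35 and 4.37 with a pseudocount of 0.1. In e1 the call ended without any of 4 libraries, parental 2 and 3 and e1 2 and 3 (0.21 in each case).

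Gdf15, a stress-induced cytokine of the superfamily, fell in both lines. It stood at 6.83, 8.68 and 8.89 TPM in parental libraries, 0.605, 0.452 and 0.733 TPM in e1 and 3.81, 3.05 and 4.65 TPM in e2. The groups did not overlap, and the changes were -2.51 ± 0.14 in e1 (adjusted p = 2.14e-07) and -0.92 ± 0.14 in e2 (adjusted p = 0.000235). Gdf11, a relative of myostatin, had means of 1.35 ± 0.200, 1.94 ± 0.447 and 4.50 ± 0.314 TPM. It rose by 1.23 ± 0.12 in e2, whereas its change of 0.31 ± 0.12 in e1 no longer passed without e1 library 1 (0.19, adjusted p = 0.0892), nor without parental library 2 or 3 (0.28 in both cases) or e2 library 1 or 2, with no filter or with 2 groups only (0.31 in each case), nor with median-ratio scaling (0.32).

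Among BMP ligand genes Bmp2 moved in opposite directions in the lines. Bmp2 on chromosome 2, a ligand of BMP type I and type II receptors, stood at 5.20, 8.07 and 7.84 TPM in parental libraries, 0.428, 0.387 and 0.454 TPM in e1 and 12.7, 12.6 and 12.1 TPM in e2. It fell by 2.48 on the log2 scale in e1 (SE 0.13, adjusted p = 1.59e-07) and rose by 0.77 ± 0.13 in e2 (adjusted p = 0.000567), and the lines differed by 3.24 ± 0.13 (adjusted p = 4.88e-08). Bmp7 had low levels, with means of 0.529 ± 0.171, 0.236 ± 0.0758 and 1.69 ± 0.354 TPM and a rise of 0.81 ± 0.12 in e2. Its change of -0.30 ± 0.12 in e1 lost its call without parental library 1 (-0.22) or 2 (-0.32), e1 library 1 (-0.29) or 2 (-0.27), or e2 library 1 (-0.30), and with no filter (-0.30). Bmp4 passed in no comparison, at 3.27 ± 0.734, 2.89 ± 0.967 and 2.65 ± 0.497 TPM, with groups that overlapped. Bmp6, not tested, had means of 0.965 ± 0.211, 0.354 ± 0.0374 and 0.131 ± 0.0422 TPM. The 4 BMP genes summed to 11.8 ± 0.764 TPM in parental cells, 3.90 ± 0.955 TPM in e1 and 16.9 ± 0.618 TPM in e2. Bmp2 gave 59.2 ± 10.2% of this sum in parental cells and 73.6 ± 3.02% in e2, while in e1 Bmp4 led with 72.8 ± 7.57%.

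**Figure D2:**
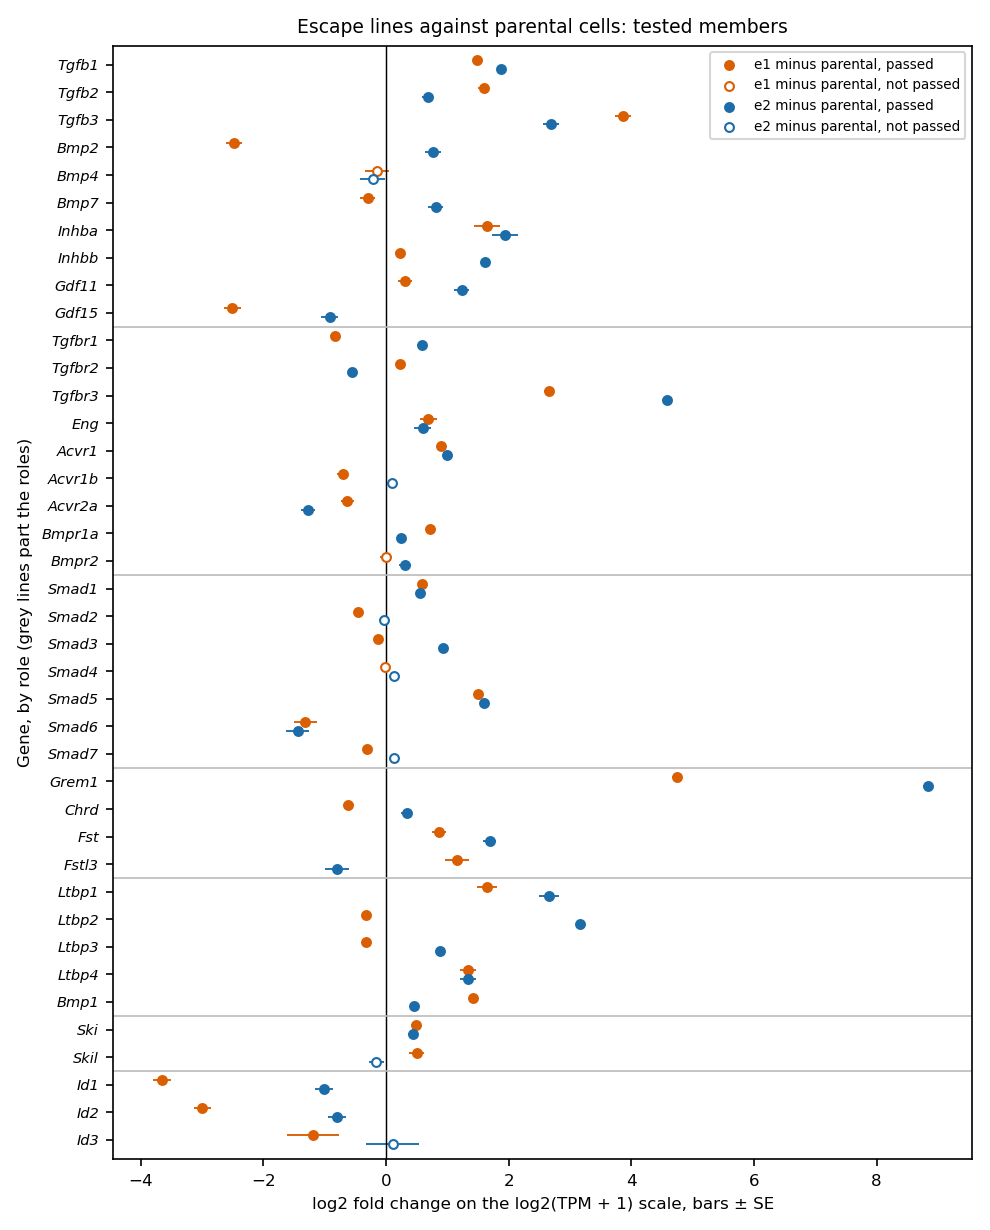
Log2 fold change of the 40 tested members in e1 (orange) and e2 (blue) against parental cells, on the x axis with bars of ± SE, and filled points for adjusted p below 0.05. Grem1 lies furthest right in both lines, and Id1 lies furthest left in e1. Genes on opposite sides of 0 include Bmp2, Tgfbr1, Ltbp2 and Ltbp3, lower in e1, and Tgfbr2 and Fstl3, higher in e1. Both comparisons share the parental libraries.

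Among receptors the main change was in the co-receptor. Tgfbr3 on chromosome 5, which encodes betaglycan, a proteoglycan that presents TGF-beta to its receptors, stood at 0.109, 0.0287 and 0.0118 TPM in parental libraries. It reached 4.99, 5.93 and 5.90 TPM in e1 and 24.5, 23.4 and 24.5 TPM in e2. The groups lay apart, and the gene rose by 2.65 ± 0.08 in e1 (adjusted p = 3.37e-09) and 4.58 ± 0.08 in e2 (adjusted p = 1.11e-10). With a pseudocount of 0.1 these values were 5.30 and 7.39, and 4.56 in e1 from the authors' log2 table.

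The signalling receptors of TGF-beta changed less and in opposite ways. Tgfbr1, the type I receptor, stood at 19.1, 17.1 and 15.9 TPM in parental libraries, 9.30, 9.20 and 9.19 TPM in e1 and 28.0, 25.6 and 25.5 TPM in e2. It was lower than parental in every e1 library (-0.84 ± 0.07, adjusted p = 4.94e-06) and higher in every e2 library (0.58 ± 0.07, adjusted p = 6.89e-05). Tgfbr2, the type II receptor, had the reverse order: 56.3 ± 1.11 TPM in parental cells, 65.7 ± 3.55 in e1 (0.22 ± 0.06) and 38.2 ± 1.22 in e2 (-0.55 ± 0.06). The level of Tgfbr2 relative to the sum of the 3 Tgfbr genes was 76.4 ± 2.06% in parental cells, 81.6 ± 0.385% in e1 and 43.1 ± 0.958% in e2. In e2 Tgfbr3 held 27.2 ± 0.852% of that sum and Tgfbr1 29.7 ± 0.791%. Eng, the co-receptor endoglin, had means of 0.566 ± 0.201, 1.54 ± 0.425 and 1.36 ± 0.137 TPM and rose by 0.69 ± 0.14 and 0.60 ± 0.14 (1.32 and 1.18 with a pseudocount of 0.1).

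The BMP and activin receptors moved in both directions. Acvr1, a type I receptor, rose from 19.5 ± 0.349 TPM to 37.4 ± 0.703 in e1 (0.90 ± 0.05) and 39.9 ± 0.499 TPM in e2 (1.0 ± 0.05). Bmpr1a, a BMP type I receptor, rose from 18.9 ± 0.711 to 31.6 ± 0.944 TPM in e1 (0.71 ± 0.05) and 22.6 ± 0.332 TPM in e2 (0.25 ± 0.05, 0.15 with median-ratio scaling and 0.14 from the authors' log2 table). Acvr1 and Bmpr1a carried nearly all of the TPM of BMP type I receptors, since Bmpr1b had means of 0.0439, 0.00816 and 0.0701 TPM. Acvr1b, the activin type I receptor, fell in e1 from 5.91 ± 0.604 to 3.22 ± 0.200 TPM (-0.71 ± 0.09) and in e2 stood at 6.33 ± 0.400 TPM (0.09 ± 0.09, adjusted p = 0.385).

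Of the type II receptors, Acvr2a, which binds activins and BMPs, stood at 8.17, 8.59 and 7.92 TPM in parental libraries, 5.76, 4.38 and 4.81 TPM in e1 and 3.31, 2.69 and 2.55 TPM in e2. The groups fell in steps without overlap, by -0.63 ± 0.11 (adjusted p = 0.00049) and -1.27 ± 0.11 (adjusted p = 3.45e-06). Its exons overlap those of Orc4 on the other strand, whose mean was 29.6 ± 2.05, 28.0 ± 2.27 and 12.3 ± 0.862 TPM in the same order. Whether reads were assigned by strand is not given, so reads of the pair may not have been told apart. Bmpr2, the BMP type II receptor, stood at 9.67 ± 0.107, 9.76 ± 1.67 and 12.2 ± 0.884 TPM. Its rise in e2 (0.31 ± 0.10, adjusted p = 0.0226) did not pass with median-ratio scaling (0.22), the authors' log2 table (0.20), or without parental library 1 (0.31), 2 (0.32) or 3 (0.30) or e2 library 1 (0.27) or 3 (0.30). Acvr2b, not tested, had means of 0.906 ± 0.170, 0.369 ± 0.102 and 0.423 ± 0.0875 TPM.

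**Figure D3:**
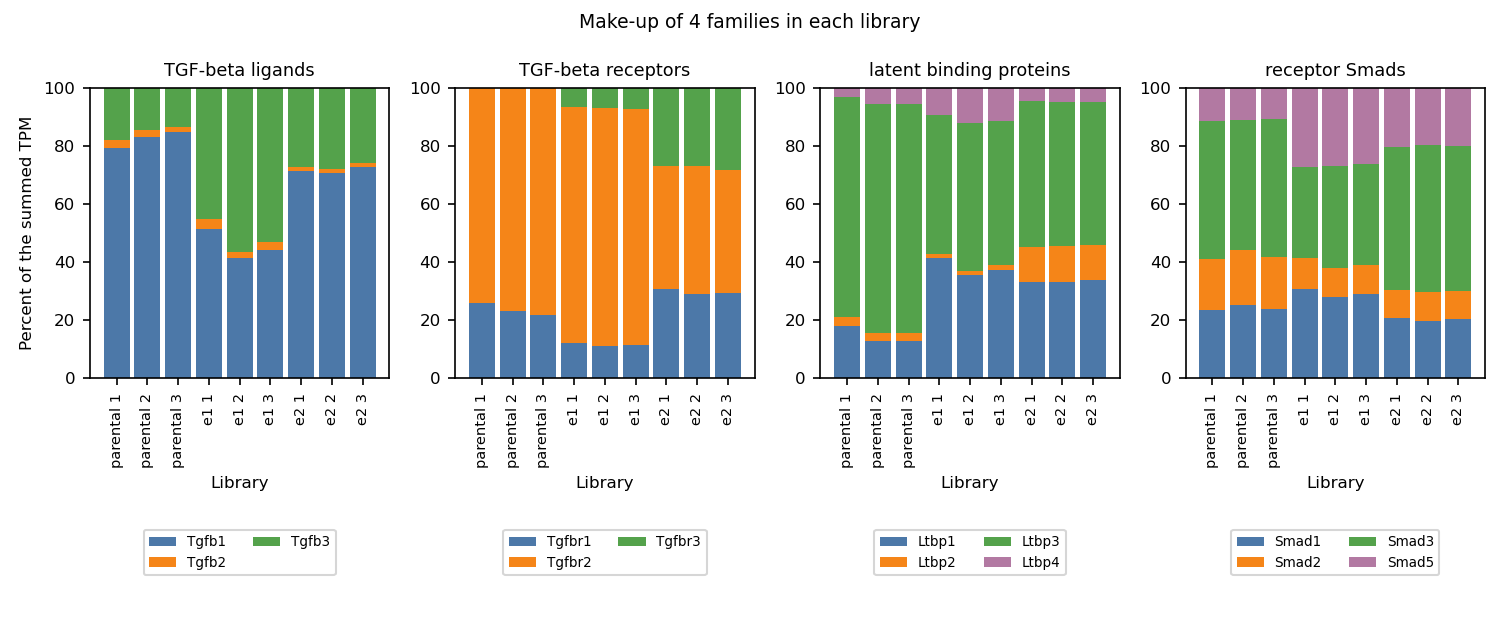
Percent of the summed TPM of a family held by each member, in stacked bars for the 9 libraries, for TGF-beta ligands, TGF-beta receptors, latent binding proteins and receptor Smads. Tgfb3 takes 45.3 to 56.3% of the ligand sum in e1, Tgfbr3 26.7 to 28.2% of the receptor sum in e2, and Smad5 26.2 to 27.1% of the receptor Smads in e1.

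Smad1 and Smad5, receptor Smads of the BMP branch, rose in both lines. Smad9, of the same branch but not among the 45 genes, was not tested, with means of 0.893 ± 0.158, 0.516 ± 0.121 and 0.191 ± 0.0296 TPM. Smad5 on chromosome 13 stood at 8.06, 8.31 and 7.98 TPM in parental libraries, 25.9, 24.2 and 24.3 TPM in e1 and 27.5, 25.4 and 26.3 TPM in e2. All escape libraries lay above all parental libraries, with changes of 1.5 ± 0.06 (adjusted p = 1.21e-08) and 1.59 ± 0.06 (adjusted p = 7.44e-09). The lines overlapped and did not pass against each other (0.09 ± 0.06, adjusted p = 0.183), though they did with the 10 highest genes removed (0.13, adjusted p = 0.0384). Smad1 rose from 17.7 ± 1.02 TPM to 27.2 ± 2.11 TPM in e1 (0.59 ± 0.07) and 26.7 ± 1.46 TPM in e2 (0.56 ± 0.07).

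Receptor Smads of the TGF-beta branch separated the lines. Smad3 on chromosome 9 stood at 33.9, 33.2 and 35.7 TPM in parental libraries, 29.9, 31.4 and 32.1 TPM in e1 and 67.3, 65.5 and 65.4 TPM in e2. The e2 libraries lay far above the rest, with a rise of 0.93 ± 0.05 over parental cells (adjusted p = 1.75e-07) and 1.06 ± 0.05 over e1 (adjusted p = 1.34e-07). In e1 the small fall of Smad3 (-0.13 ± 0.05, adjusted p = 0.0417) lost its call without parental library 3 (-0.11), e1 library 1 (-0.10) or 2 (-0.14), any e2 library (-0.13 in each case), with 2 groups only or without the trend and robust settings. Smad2 fell in e1 from 13.4 ± 0.935 to 9.47 ± 0.659 TPM (-0.46 ± 0.07) and in e2 stood at 13.0 ± 0.234 TPM (-0.04 ± 0.07, adjusted p = 0.639). Smad4, the shared partner, stood at 41.4 ± 3.57, 41.0 ± 2.69 and 45.2 ± 0.410 TPM and passed in no comparison. It passed in e2 over parental cells with the 10 highest genes removed (0.17), and between the lines with that setting (0.19), without parental library 1 (0.14) and without e1 library 1 (0.19). The ratio of summed Smad1 and Smad5 to summed Smad2 and Smad3 TPM was 0.543 ± 0.0256 in parental cells, 1.28 ± 0.0859 in e1 and 0.672 ± 0.0236 in e2.

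The inhibitory Smads differed from each other. Smad6 on chromosome 9, an inhibitor and target of BMP signalling, stood at 13.7, 15.5 and 16.8 TPM in parental libraries, 3.63, 6.77 and 6.67 TPM in e1 and 5.74, 4.89 and 4.47 TPM in e2. Both lines lay below the parental libraries and overlapped with each other, with changes of -1.32 ± 0.19 (adjusted p = 0.000156) and -1.44 ± 0.19 (adjusted p = 8.18e-05). Without e1 library 1 the lines differed by -0.36 (adjusted p = 0.0099), against -0.12 ± 0.19 with it. Smad7, which blocks TGF-beta receptors, moved little: it had means of 14.0 ± 1.15, 11.1 ± 0.645 and 15.4 ± 0.348 TPM, fell by 0.31 in e1 (SE 0.07) and did not pass in e2 (0.13 ± 0.07, adjusted p = 0.134; 0.19 and adjusted p = 0.0449 without parental library 3). Of the nuclear repressors of Smads, Ski rose from 23.0 ± 1.52 TPM to 32.5 ± 2.72 in e1 and 31.6 ± 1.65 TPM in e2 (0.48 ± 0.08 and 0.44 ± 0.08). Skil rose in e1 by 0.50 ± 0.12, or 0.33 without e1 library 1, and had a value of -0.16 ± 0.12 in e2 (adjusted p = 0.244), which passed with 2 groups only (adjusted p = 0.0153) or when e1 library 1 was left out (0.00732). Bambi, a membrane decoy receptor, was not tested, at means of 0.172, 0.172 and 0.441 TPM.

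Grem1 showed the largest change of the 40 tested genes in both lines. It lies on chromosome 2 and encodes gremlin, a secreted antagonist that binds BMP2, BMP4 and BMP7. It stood at 0.121, 0.0390 and 0 TPM in parental libraries, 23.9, 28.1 and 29.8 TPM in e1 and 491, 473 and 481 TPM in e2. The 3 groups lay far apart, with a rise of 4.74 ± 0.08 in e1 (adjusted p = 1.08e-10; 7.55 with a pseudocount of 0.1) and a further 4.10 ± 0.08 from e1 to e2 (adjusted p = 6.89e-10). The ratio of mean TPM between e2 and e1 was 17.7. Set against the summed TPM of Bmp2, Bmp4, Bmp6 and Bmp7, Grem1 was at 0.00473 ± 0.0057 in parental cells, 7.18 ± 1.22 in e1 and 28.4 ± 0.506 in e2. That sum leaves out Bmp8b, which had 29.6 ± 6.30 TPM in parental cells and was near 0 in both lines. The fibroblast markers rose in the same libraries, to a sum of 324 ± 7.51 TPM in e1 and 345 ± 6.28 TPM in e2. Between the lines 5 of 9 tested fibroblast markers were higher in e2 and 3 lower, beside 40.6% and 29.7% of all tested genes. The median was 1.66. Among the higher were Dcn (0.148 ± 0.0708 to 35.5 ± 0.853 TPM) and Pdpn (0.0518 ± 0.00931 to 70.3 ± 0.562 TPM). The 3 lower were Col1a1 (103 ± 25.2 to 34.7 ± 0.799 TPM), Col1a2 (116 ± 6.66 to 82.0 ± 2.97 TPM) and Col3a1 (76.5 ± 21.7 to 53.7 ± 0.893 TPM). The call of Col3a1 ended under 11 of the other settings. The part of the fibroblast markers in the change of Grem1 was not tested.

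Nog, which encodes noggin, had means of 0.653 ± 0.176, 0.219 ± 0.0795 and 0.117 ± 0.0666 TPM and was not tested. Chrd, which encodes chordin, fell from 0.967 ± 0.0992 to 0.288 ± 0.134 TPM in e1 (-0.62 ± 0.09, and -1.53 with a pseudocount of 0.1) and stood at 1.48 ± 0.0162 TPM in e2 (0.34 ± 0.09). That rise in e2 did not pass with a pseudocount of 0.1 (adjusted p = 0.0732) or with the authors' log2 table (0.0643; 0.00146 to 0.0732 over the alternatives). Of the activin antagonists, Fst, which encodes follistatin, rose from 0.644 ± 0.241 TPM to 1.98 ± 0.242 in e1 and 4.25 ± 0.181 TPM in e2 (0.86 ± 0.11 and 1.69 ± 0.11, or 1.52 and 2.60 with a pseudocount of 0.1). Fstl3, a relative of follistatin, went opposite ways. It stood at 6.91, 6.79 and 6.91 TPM in parental libraries, 24.7, 14.4 and 12.8 TPM in e1 and 3.82, 2.93 and 3.83 TPM in e2. The groups did not overlap, and Fstl3 rose by 1.16 ± 0.20 in e1 (adjusted p = 0.000575) and fell by 0.80 in e2 (SE 0.20, adjusted p = 0.0051). The ratio of Inhba to summed Fst and Fstl3 was 0.787 ± 0.0931 in parental cells, 1.11 ± 0.101 in e1 and 3.27 ± 0.129 in e2.

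Latent binding proteins rose in e2 throughout and in e1 in part. Ltbp1 stood at 14.6, 9.85 and 9.76 TPM in parental libraries, 46.0, 32.3 and 34.6 TPM in e1 and 76.6, 74.3 and 77.4 TPM in e2. The groups rose in steps without overlap, by 1.65 ± 0.16 (adjusted p = 1.04e-05) and 2.66 ± 0.16 (adjusted p = 2.98e-07). Ltbp2, which unlike its relatives is not known to bind latent TGF-beta, stood at 2.57, 1.99 and 2.06 TPM in parental libraries, 1.61, 1.44 and 1.62 TPM in e1 and 27.9, 27.9 and 27.4 TPM in e2. It was high in e2 alone of the 3 groups, at 3.17 ± 0.08 over parental cells (adjusted p = 1.14e-09) and 3.49 ± 0.08 over e1 (adjusted p = 1.84e-09), and was lower than parental in e1 (-0.32 ± 0.08). An antisense transcript with overlapping exons, D030025P21Rik, had means of 0.705, 0.0788 and 2.30 TPM, the same order of groups.

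Ltbp3, the most abundant of the family, stood at 62.2, 61.2 and 60.7 TPM in parental libraries, 53.2, 46.5 and 46.4 TPM in e1 and 116, 112 and 113 TPM in e2. The groups did not overlap, with -0.33 ± 0.06 in e1 (adjusted p = 0.000801) and 0.88 ± 0.06 in e2 (adjusted p = 7.81e-07). Ltbp4 stood at 2.64, 4.09 and 4.32 TPM in parental libraries, 10.4, 10.8 and 10.5 TPM in e1 and 10.5, 10.6 and 10.8 TPM in e2. It rose by 1.33 ± 0.13 in both lines (adjusted p = 1e-05 and 9.06e-06), which overlapped with each other. The 4 Ltbp genes summed to 78.7 ± 2.88 TPM in parental cells, 98.4 ± 11.1 in e1 and 228 ± 3.14 in e2, and Ltbp3 fell from 78.1 ± 1.90% of the sum to 49.6 ± 1.63% in e1 and 49.9 ± 0.432% in e2. Bmp1 is a protease that trims procollagen and chordin, despite its name. It stood at 24.4, 23.0 and 21.5 TPM in parental libraries, 59.2, 65.2 and 65.5 TPM in e1 and 32.9, 31.5 and 31.4 TPM in e2. All groups lay apart, and it rose by 1.42 ± 0.06 in e1 (adjusted p = 4.66e-08) and 0.46 ± 0.06 in e2 (adjusted p = 0.000128).

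The Id genes encode helix-loop-helix proteins without a DNA-binding region, which hold back other factors of their class. All 3 were lower in e1 than in parental cells, and on the log2(TPM + 1) scale Id1 fell more than any other tested member there. By the ratio of mean TPM, Bmp2 (16.6-fold lower) and Gdf15 (13.6-fold lower) fell more than Id1 in e1. Id1 on chromosome 2 stood at 338, 421 and 395 TPM in parental libraries, 21.8, 34.5 and 33.5 TPM in e1 and 189.8, 186 and 194 TPM in e2. The groups did not overlap, and mean TPM was 12.8-fold lower in e1 and 2.02-fold lower in e2 than in parental cells. The log2 changes were -3.66 ± 0.15 (adjusted p = 2.95e-08) and -1.01 ± 0.15 (adjusted p = 0.000247). Id2 on chromosome 12 stood at 155, 161 and 151 TPM in parental libraries, 13.8, 21.7 and 21.6 TPM in e1 and 90, 87.2 and 89.4 TPM in e2. It followed the same order without overlap, at -3.0 ± 0.14 (adjusted p = 6.8e-08) and -0.80 ± 0.14 (adjusted p = 0.00066).

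Id3 on chromosome 4 was less uniform. It stood at 87.7, 127 and 121 TPM in parental libraries, 21.6, 72.1 and 68.8 TPM in e1 and 121, 113 and 125 TPM in e2. The e1 libraries lay below the others, and e1 library 1 lay far below the other two of its group, while parental and e2 libraries overlapped. The change in e1 was -1.19 ± 0.43 (adjusted p = 0.0407). It was -0.64 without e1 library 1 (adjusted p = 0.00342), and the call ended without parental library 2 (-1.10, adjusted p = 0.099) or 3 (-1.13, 0.0986), without any e2 library (-1.19, 0.0555 to 0.0582) and with 2 groups only (-1.19, 0.075). In e2 Id3 did not pass (0.11 ± 0.43, adjusted p = 0.825). Between the lines it was 1.31 ± 0.43 higher in e2 (adjusted p = 0.0291), 0.76 without e1 library 1, and the call ended without e2 library 1 (1.30), 2 (1.35) or 3 (1.28). All 3 Id genes were lowest in e1 library 1, where their sum was 57.2 TPM against 128 and 124 TPM in the other e1 libraries. Without that library the changes of Id1 and Id2 in e1 were -3.46 and -2.79.

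**Figure D4:**
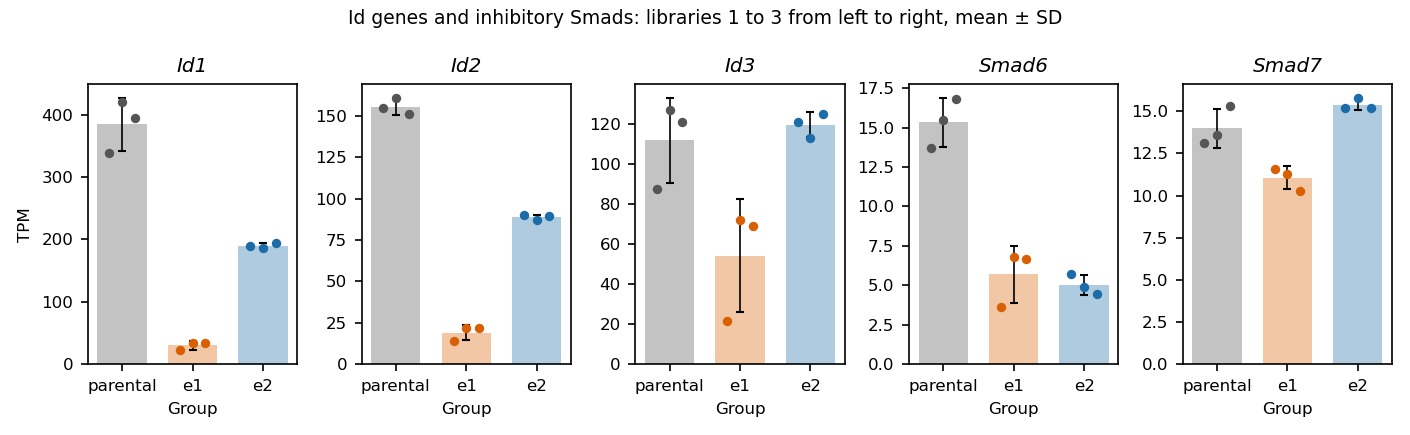
TPM of Id1, Id2, Id3, Smad6 and Smad7 in parental, e1 and e2 libraries, with bars at the mean, error bars of 1 SD and points for libraries 1 to 3 from left to right. Id1 and Id2 lie lowest in e1 and between in e2, Smad6 is low in both lines, and e1 library 1 is the lowest point for Id1, Id2, Id3 and Smad6.

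Id1, the tested member that fell most in e1 on the log2(TPM + 1) scale, had no entry among the promoters used and is not shown. The promoters of Grem1, Smad6, Id2 and Id3 are shown because Grem1 gave the largest rise, and the others are known BMP targets that were lower in e1. Each runs from 250 bases before to 50 bases after a start given by RefSeq, which for Smad6 is not the outermost end of the annotated gene (64022085), 5′ to 3′ on the gene's strand, on GRCm38.p6, and capitals mark GGCGCC, a GC-rich sequence known to bind Smads of the BMP branch.
Grem1 (chr2:113758599-113758898, minus strand): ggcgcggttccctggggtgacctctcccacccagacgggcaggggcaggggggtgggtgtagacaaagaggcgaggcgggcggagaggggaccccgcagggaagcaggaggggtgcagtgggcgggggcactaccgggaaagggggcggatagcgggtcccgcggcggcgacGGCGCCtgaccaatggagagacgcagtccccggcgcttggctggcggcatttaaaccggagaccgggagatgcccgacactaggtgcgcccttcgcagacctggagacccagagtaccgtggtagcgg
Smad6 (chr9:64022010-64022309, minus strand): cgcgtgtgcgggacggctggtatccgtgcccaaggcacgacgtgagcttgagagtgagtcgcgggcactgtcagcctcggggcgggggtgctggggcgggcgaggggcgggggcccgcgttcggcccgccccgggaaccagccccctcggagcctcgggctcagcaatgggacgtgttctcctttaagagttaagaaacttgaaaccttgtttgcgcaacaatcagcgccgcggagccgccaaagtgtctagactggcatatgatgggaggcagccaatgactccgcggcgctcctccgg
Id2 (chr12:25096043-25096342, minus strand): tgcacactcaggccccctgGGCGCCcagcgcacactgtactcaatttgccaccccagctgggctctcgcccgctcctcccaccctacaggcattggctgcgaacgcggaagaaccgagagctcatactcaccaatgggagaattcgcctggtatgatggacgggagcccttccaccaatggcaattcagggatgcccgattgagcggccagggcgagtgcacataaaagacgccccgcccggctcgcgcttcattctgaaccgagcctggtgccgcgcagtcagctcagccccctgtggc
Id3 (chr4:136143572-136143871, plus strand): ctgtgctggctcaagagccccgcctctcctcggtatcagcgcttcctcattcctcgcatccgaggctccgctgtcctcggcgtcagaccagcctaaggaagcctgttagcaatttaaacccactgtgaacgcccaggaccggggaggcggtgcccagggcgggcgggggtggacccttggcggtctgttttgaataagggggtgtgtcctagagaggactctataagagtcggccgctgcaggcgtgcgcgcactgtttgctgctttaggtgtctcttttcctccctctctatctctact
GGCGCC, which reads the same on both strands, was found once in the Grem1 window, 78 bases before the start, and once in the Id2 window, 231 bases before it, and not in these windows of Smad6 and Id3. CAGACA, the other motif searched on both strands (reverse complement TGTCTG), a sequence bound by Smad3 and Smad4, was in none of the 4 windows. Promoter entries matched 32 of the 45 genes, with 41 entries in all, some of which overlap. GGCGCC was in 29.3% of these entries beside 11.9% of 32851 promoter windows of the same length, and CAGACA in 17.1% beside 21.0%. A match is a string of letters and shows no binding.

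A further list of 120 genes of the same pathways, none of them among the 45, had 82 tested genes. In e1 46 were higher and 21 lower, in e2 51 and 16, and between the lines 32 were higher in e2 and 27 lower, beside the shares of all genes given above. Of 24 genes known to respond to TGF-beta, all tested, 17 were higher and 7 lower in e1, beside 35.7% and 34.9% of all tested genes. In e2 16 were higher and 3 lower, beside 40.8% and 32.7% of all tested genes. Their medians were 1.80 in e1 and 1.30 in e2. Several of the 24 are also mesenchymal or matrix genes and were near 0 in parental cells. Of these 24, 3 (Col1a1, Col1a2 and Col3a1) are also in the fibroblast list. Col1a2, a chain of collagen I, was listed at 0 in the 3 parental libraries and had means of 116 ± 6.66 and 82.0 ± 2.97 TPM in e1 and e2, and Col3a1, collagen III, likewise listed at 0, had 76.5 ± 21.7 and 53.7 ± 0.893 TPM. Tgfbi, a matrix protein named for its induction by TGF-beta, had means of 0.112 ± 0.0407, 8.91 ± 5.09 and 45 ± 1.15 TPM (2.97 ± 0.40 in e1, or 5.19 with a pseudocount of 0.1, and 5.37 ± 0.40 in e2). Acta2, smooth muscle actin, had means of 0.0577 ± 0.0337, 263 ± 82.6 and 21.3 ± 0.581 TPM and was lower in e2 than in e1 (-3.52 ± 0.17 on the log2 scale, adjusted p = 1.27e-07). Genes that fell included Ctgf, a matricellular protein, which went from 207 ± 10.9 TPM to 71.6 ± 1.47 TPM in e2 (-1.52 ± 0.31, adjusted p = 0.00255), and Vegfa, an angiogenic factor, at -2.24 ± 0.07 in e1.

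Of 16 genes known to respond to BMP, 9 were tested, of which 5 were higher and 1 lower in e1 and 7 were higher and 1 lower in e2, where 70.6% and 73.5% of all tested genes passed. Id4, the remaining Id gene, did not follow Id1 to Id3: it had means of 0.309 ± 0.0609, 0.406 ± 0.0454 and 25.0 ± 0.297 TPM and was 4.21 ± 0.07 higher in e2 than in e1 (adjusted p = 3.53e-10). Tbx3, a T-box transcription factor, was near 0 in parental and e1 libraries and had a mean of 8.2 ± 0.161 TPM in e2 (3.19 ± 0.06 over e1, or 6.27 with a pseudocount of 0.1). Among other antagonists, 11 tested, 10 were higher and 1 lower in e2, where 73.5% of all tested genes passed. In e1 5 were higher and 3 lower, where 70.6% of all tested genes passed. Fstl1, a secreted follistatin-like protein, had means of 0.308 ± 0.341, 171 ± 13.4 and 10.3 ± 0.302 TPM and was lower in e2 than in e1 by -3.92 ± 0.15.

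Of 13 tested genes for the activation of latent TGF-beta, 9 were higher and 2 lower in e1, beside 35.7% and 34.9% of all tested genes. In e2 8 were higher and 3 lower, beside 40.8% and 32.7% of all tested genes. Itgb6, the integrin subunit through which epithelial cells activate latent TGF-beta, went from 6.54 ± 1.21 TPM to 0.0554 ± 0.0389 in e1 and 0.0299 ± 0.0162 TPM in e2 (-2.83 ± 0.11 and -2.86 ± 0.11, or -5.43 and -5.67 with a pseudocount of 0.1). Fbn1, the microfibril protein fibrillin, had means of 0.150 ± 0.0193, 33.8 ± 14.2 and 1.30 ± 0.226 TPM, and Mmp2, a gelatinase, 0.0213 ± 0.00245, 0.120 ± 0.0528 and 16.8 ± 0.312 TPM. They moved in opposite ways between the lines, at -3.85 ± 0.22 and 3.99 ± 0.07 (6.29 for Mmp2 with a pseudocount of 0.1). Among other ligands 4 genes were tested, and 3 were lower in each line, beside 34.9% of all tested genes in e1 and 32.7% in e2. Bmp8b went from 29.6 ± 6.30 TPM to 0.0700 ± 0.0472 in e1 and 0.0897 ± 0.0190 TPM in e2 (-4.82 ± 0.14 and -4.79 ± 0.14, or -7.47 and -7.27 with a pseudocount of 0.1). It has a near-identical neighbour, Bmp8a, so the split of reads between them is uncertain. Of 19 tested intracellular regulators, 9 were higher and 5 lower in e1, beside 35.7% and 34.9% of all tested genes. For e2 the counts were 8 higher and 5 lower, beside 40.8% and 32.7% of all tested genes. Their medians were 0.11 in e1 and 0.02 in e2, beside 0.02 and 0.07 for all tested genes.

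**Figure D5:**
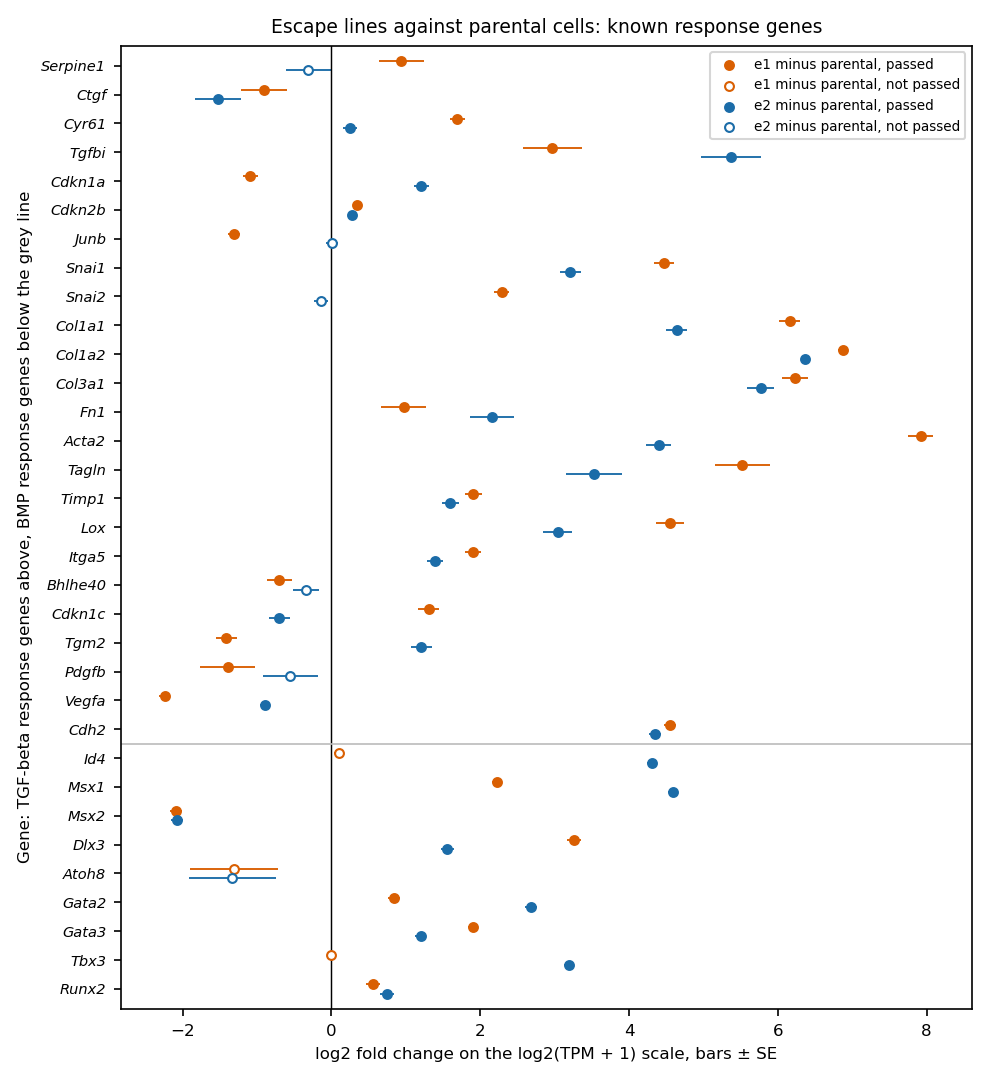
Log2 fold change of 33 tested response genes in e1 (orange) and e2 (blue) against parental cells, on the x axis with bars of ± SE; filled points have an adjusted p below 0.05. Genes known to respond to TGF-beta stand above the grey line, with Acta2 furthest right in e1 at 7.92, and genes known to respond to BMP below it, with Id4 and Tbx3 high in e2 only of the 2 lines (4.31 and 3.19).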

How the data were processed

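Expression was measured by RNA-seq in 9 libraries, which a company prepared, per the labels' protocols. The authors deposited TPM values by gene and, in another table, log2 values from the rlog transform. The submitters' processing notes name Salmon, DESeq2 and mm10, but versions, annotation and strand setting were not given in the sources used. TPM keeps no depth, so no counting error is given.

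The members, gene lists and tests were chosen with earlier results of these data known. Groups and library numbers were taken from the titles. Genes that reached 1 TPM in 3 or more of the 9 libraries (12769 of 24493) were fitted as log2(TPM + 1) in limma 3.58.1 (R 4.3.3) with 3 group means, mean-variance trend and robust empirical Bayes. Two-sided p-values were adjusted by Benjamini-Hochberg over all tested genes and called below 0.05. The fit was also run on simulated data, with normal noise about the parental means and 200 changed genes, none of them near 0 TPM in parental cells. Far more genes were called in the real data, so that run does not cover their setting or genes near 0. Values in every library are given for members called with a change of at least 1 and at least 5 TPM in the higher group. For other pathway genes, up to 3 called per direction and comparison are named. Coordinates and promoters are from RefSeq on GRCm38.p6. Exon overlaps, from GENCODE M21 on GRCm38, involve 14 members, 12 of them with a gene on the opposite strand.

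Also tried were a replicate block, the rlog table, only the compared groups, leaving out each library, scaling by median ratios, leaving out the 10 highest genes, a pseudocount of 0.1, a filter at 5 TPM or none, and a fit without trend or robustness.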

Additional observations from a re-analysis of the deposited data

Results flagged for a closer look

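For 16 members the change from parental cells differed between e1 and e2 by at least 1 on the log2 scale, by the limma test of e2 minus e1 (adjusted p below 0.05). Among ligands the difference was -1.17 for Tgfb3, 3.24 for Bmp2, 1.12 for Bmp7, 1.39 for Inhbb and 1.59 for Gdf15. Among receptors and Smads it was 1.42 for Tgfbr1, 1.93 for Tgfbr3 and 1.06 for Smad3. Among antagonists it was 4.10 for Grem1 and -1.97 for Fstl3. The latent binding proteins gave 1.01 for Ltbp1, 3.49 for Ltbp2 and 1.21 for Ltbp3. The Id genes gave 2.65 for Id1, 2.19 for Id2 and 1.31 for Id3. The size for Id3 depends on e1 library 1, without which it was 0.76, and its call ended when any e2 library was left out. Negative values are lower in e2 than in e1.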

How the results depend on the processing

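Under the other settings tried no result reversed, and all counts of members called stayed within 1.5 times the reported ones. Leaving out 1 library gave 33 to 36 called members in e1, 32 to 34 in e2 and 28 to 33 between the lines, and the other alternatives 30 to 38, 26 to 37 and 24 to 33, where the lowest came with the filter of 5 TPM, which tests fewer genes. The library numbers are not said to pair libraries, and same-numbered libraries correlated at -0.13 to 0.05 in their deviations from the group means, with 2 of 9 libraries closest to their own number in both other groups. With a replicate block 35 members were called in e1, 33 in e2 and 30 between the lines, and 8742, 9163 and 8740 of all genes. In e1 Bmp7 (-0.30, adjusted p = 0.0589) and Smad3 (-0.13, adjusted p = 0.0732) did not pass in limma with the block. Changes of genes near 0 TPM depend on the pseudocount. Depth is unknown, so low levels carry no detection limit.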
